A study of Arabidopsis thaliana with 8 samples.

Results

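The 10 genes at the core of the Arabidopsis thaliana circadian clock, of 27444 nuclear protein-coding genes, are described here by the accessible chromatin in and around them. They were chosen by identifier: CCA1 (AT2G46830), LHY (AT1G01060), TOC1 (AT5G61380), PRR5 (AT5G24470), PRR7 (AT5G02810), PRR9 (AT2G46790), GI (AT1G22770), ELF3 (AT2G25930), ELF4 (AT2G40080) and LUX (AT3G46640). All 10 matched the gene table used. The window of a gene is the gene with 1000 bp on either side, and every peak that overlaps a window by at least 1 bp was taken. All 10 genes carried a peak in all 8 libraries, beside 45.2% of all protein-coding genes. Neither the line nor the generation of the plants separated the libraries in covered bases or highest fold at any of the 10. Such separation was rare in the whole genome too. In covered bases it was found for 3.42% of all genes by line and 2.86% by generation. In highest fold it was 3.50% and 2.17% of the genes with a peak in all 8 libraries.

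Accessibility was measured by ATAC-seq, in which the transposase Tn5 cuts and tags open DNA, in shoots of seedlings 7 to 9 days old. The plants were 2 recombinant inbred lines, RIL149 and RIL50, each a homozygous mosaic of a cross between 2 wild-type strains, Ler (Landsberg erecta) and Cvi (Cape Verde Islands), and the series text describes the lines as differing in how often CG methylation changes on its own. The 8 libraries are RIL149 at generation 10 and at generation 3, and RIL50 at generation 10 and at generation 3, each from lineages 1 and 2. The labels name no transgene and no treatment, and all plants grew on plates at 25 °C with 16 h of light and 8 h of dark. The generation 10 libraries are of sublineage 2 and the generation 3 libraries of sublineage 1, except in RIL149 lineage 2, where both are of sublineage 1. The labels give 200 mg of shoots for each library and do not say how many plants that was. A p-value reflects only how far these libraries spread, which may be technical. The hour of harvest is not given in the sources used here, although expression of these genes depends on the time of day.

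The plant clock is a set of genes that repress one another in turn through the day. The MYB factors CCA1 and LHY act around dawn, the pseudo-response regulators PRR9, PRR7, PRR5 and TOC1 follow one after another from morning to evening, and ELF3, ELF4 and LUX form the evening complex, a repressor of the night. GI works beside them in the afternoon and evening, stabilising the F-box protein ZTL and linking the clock to flowering. In seedling shoots this network sets daily rhythms of photosynthesis genes, of growth of the hypocotyl and of the response to day length.

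The lists held 13186 to 21540 nuclear peaks per library, covering 4.26 to 7.56 Mb. Read totals are not part of the lists. The background pileup per base over the genome, solved from the fold and p of the peaks, served as the measure of depth and ran from 8.71 (RIL50 generation 3 lineage 1) to 25.3 (RIL50 generation 3 lineage 2). It can include organelle reads. The shortest list was that of RIL149 generation 3 lineage 2, with 13186 peaks. Shoot identity was checked on peaks near marker genes: 7 of 7 photosynthesis markers had a peak in every library, and 2 to 5 of 10 root markers did in a given library. Of the root markers, CASP1 was listed in all 8 libraries (fold 3.32 to 5.23), EXPA7 in 6 and WOX5 in 5, while PLT1, PLT2, BRN2 and RHD6 were listed in none. In bulk tissue, an opening in fewer cells and a smaller opening in each cell cannot be told apart. Reads were placed on the Col-0 sequence while the plants carry Ler or Cvi alleles, and which allele each line has at the clock genes is not known here, so a sequence difference and a difference in accessibility cannot be told apart either.

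Merging overlapping peaks of the 8 lists gave 20 accessible regions in the 10 windows, with 15 to 19 peaks per library. Having a peak in all 8 libraries was the case for 45.2% of all protein-coding genes, beside the 10 of 10 clock genes. Of the 20 regions, 14 (70%) were listed in all 8 libraries, against 10916 of 24103 (45.3%) regions of the whole genome. Most of the openings lay at the ends of the genes and not within them. Of the 20 regions, 12 crossed a gene end, 7 lay wholly outside the gene and 1, in LUX, lay wholly inside. The gene table gives no strand, so ends are named by coordinate, and which of them is the start of transcription is not stated here. In all 8 libraries the strongest peak had its summit outside the gene for 10 of 10 clock genes, beside 70.3% of the 12414 genes with a peak in every library. A peak that overlapped the gene itself in all 8 libraries was found for 4 of the 10, CCA1, LHY, TOC1 and PRR7, beside 26.1% of all protein-coding genes.

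**Figure D1:**
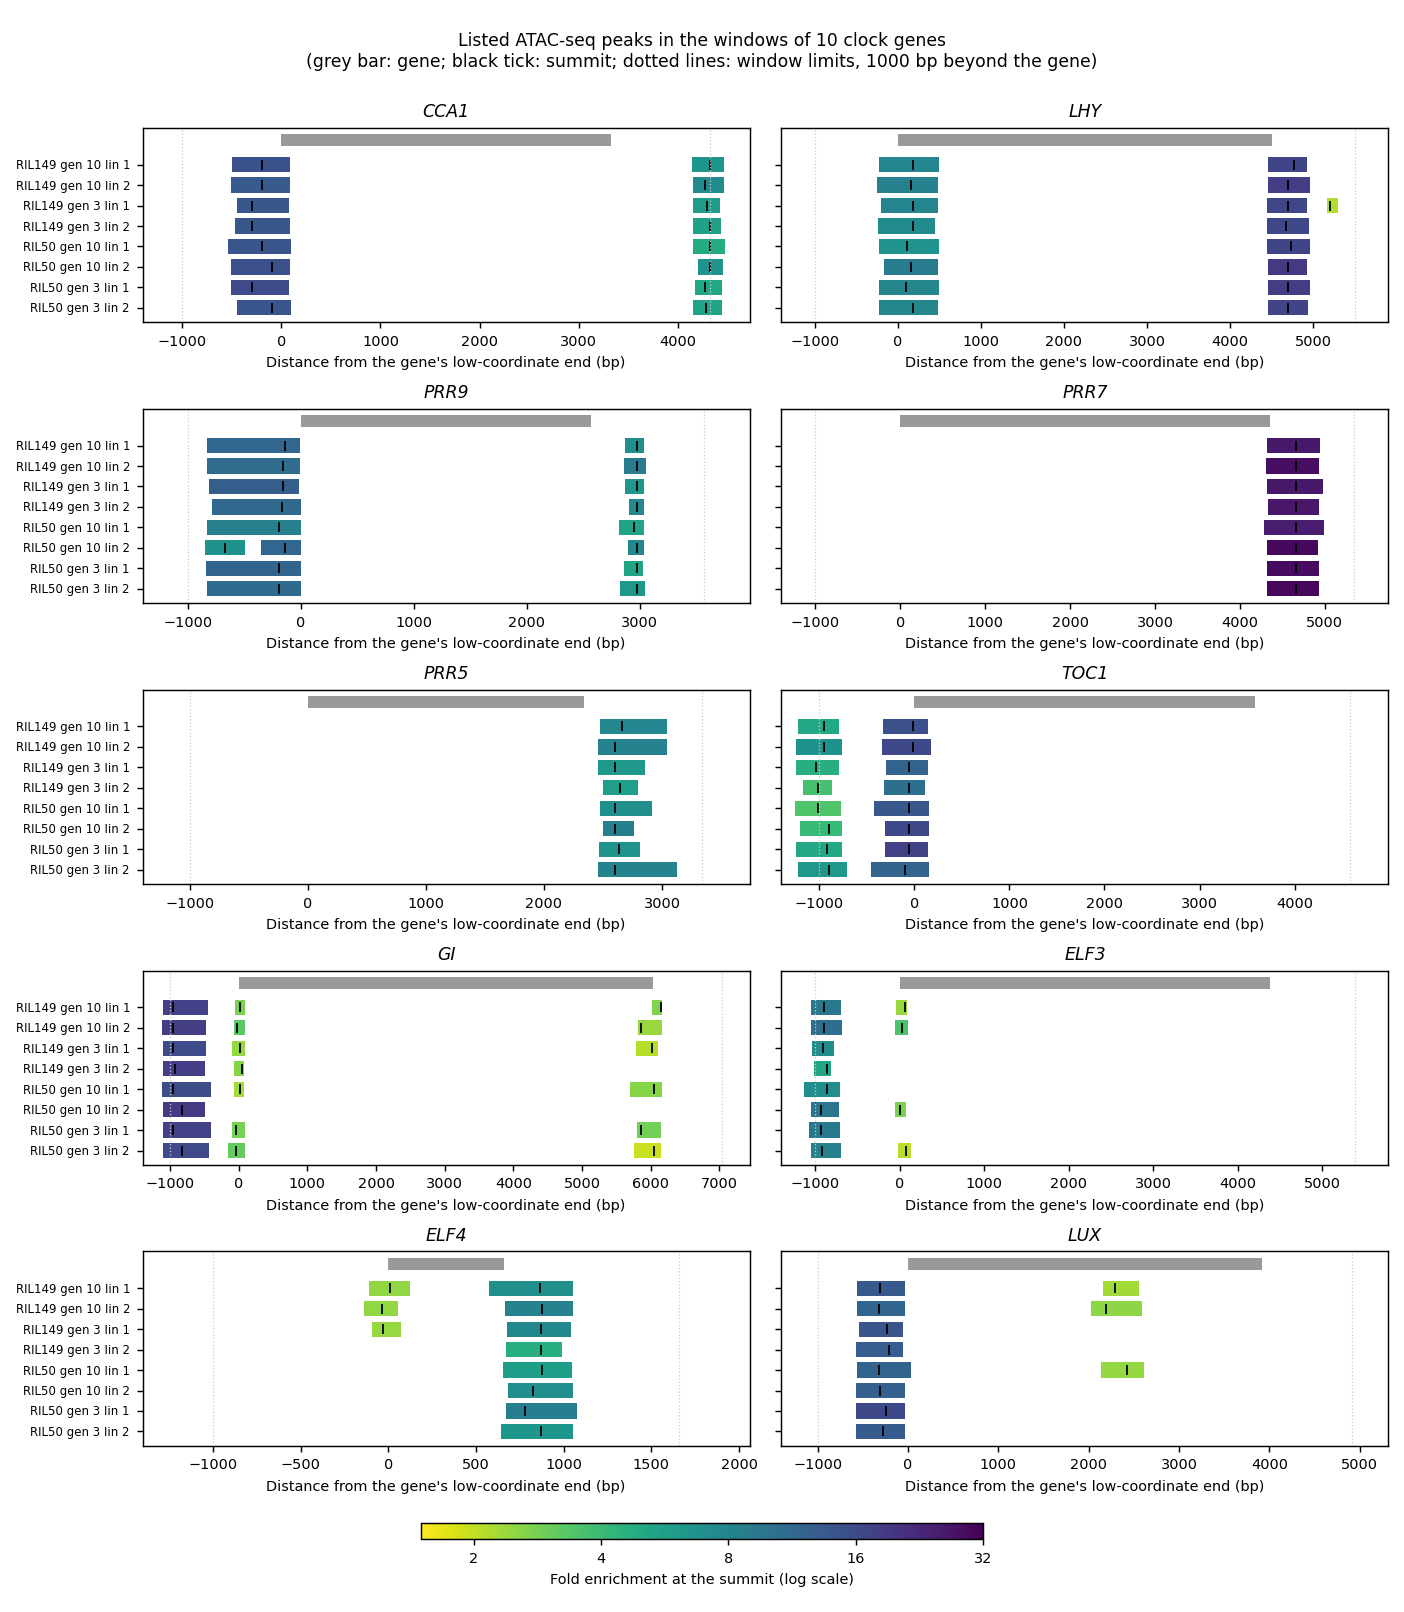
Peaks of the 8 libraries in the window of each clock gene, by distance in bp from the end of the gene with the lower coordinate. Each bar is a listed peak coloured by its fold enrichment on a log scale, black ticks are summits, the grey bar is the gene and dotted lines mark the window; 14 of the 20 regions line up in all 8 libraries.

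The strength of a peak is given as fold enrichment, the pileup of reads at the summit over the local background. It is the authors' own value for each peak, and it is described here and not tested. Values are given per line in the order generation 10 lineages 1 and 2, then generation 3 lineages 1 and 2. The strongest peak in a window stands for the gene. It is a value at 1 position, but a longer window can hold more peaks to take it from. Some windows reach into neighbouring genes, which are named, and a peak between genes cannot be assigned to either from these data.

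The morning genes CCA1 and LHY had a region at or beyond each end in every library. CCA1 had its main region across the low-coordinate end (chromosome 2, 19245050 to 19245690), which reached 541 bp beyond the gene and 100 bp into it and touched the neighbouring gene PSI-P. Fold enrichment there was 14.9, 13.5, 13.9 and 14.0 in RIL149 and 14.3, 15.2, 16.0 and 14.3 in RIL50. These values stayed close together and the lines overlapped, with means of 14.1 ± 0.588 over the 4 RIL149 libraries and 15.0 ± 0.807 over the 4 RIL50 libraries (SD). Widths were 592, 593, 634 and 594 bp at generation 10 (RIL149 lineages 1 and 2, then RIL50 lineages 1 and 2) and 528, 561, 586 and 551 bp at generation 3. Every generation 10 peak was wider than every generation 3 peak, which was so at 1 of the 14 shared clock regions. The widths of 3.77% of all 10916 shared regions did not overlap between the generations (350 wider and 61 narrower at generation 10). The CCA1 summits moved more than those of the other 13 shared clock regions. They lay 90 to 300 bp outside the gene, over a range of 210 bp. The median range was 90.5 bp over the 14 shared clock regions and 66 bp over all 10916 shared regions. A weaker region, with a fold of 5.93 ± 0.841 (SD, n = 8), lay 816 bp or more beyond the other end, at the next gene, DUF4.

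LHY is the close relative of CCA1. Its strongest region (chromosome 1, 37805 to 38330) crossed the high-coordinate end and lay 113 bp short of the next gene, UMAMIT28. Fold enrichment there was 17.2, 18.4, 16.8 and 16.4 in RIL149 and 17.1, 19.2, 18.5 and 17.2 in RIL50. The lines overlapped, and the region kept a width of 481 to 524 bp, with the same 481 bp covered in all 8 libraries. Another region across the low-coordinate end (chromosome 1, 33119 to 33858) had a fold of 7.82 ± 0.680 (SD, n = 8), 494 of its 740 bases were inside LHY, and its summits lay 95 to 187 bp into the gene. It also touched PPa1, a pyrophosphatase gene. Together the regions gave LHY the most covered bases of the 10 genes, 1221 ± 51.4 bp (SD, n = 8).

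Among the pseudo-response regulators, PRR7 had the strongest opening of all the clock genes. PRR7 represses CCA1 and LHY during the day. Its region (chromosome 5, 641965 to 642669) crossed the high-coordinate end and also overlapped the tRNA gene AT5G02815 and RHL2. Fold enrichment was 26.1, 29.0, 26.3 and 26.7 in RIL149 and 25.2, 30.1, 29.4 and 30.4 in RIL50. All 8 values exceeded those of every other clock gene, and the lines overlapped. The summits of the 8 libraries fell within 6 bp, 311 to 317 bp outside the gene. In its own library each of these peaks ranked at percentile 99.9 to 99.99 of all listed peaks. The pileup at the summit was 542 to 1673, and the local background against which the fold was taken was itself 1.54 to 2.89 times the library's background.

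PRR9, expressed earliest of the family, had a broad region beside the low-coordinate end (chromosome 2, 19231762 to 19232607). Fold enrichment was 11.7, 11.0, 13.0 and 11.5 in RIL149 and 8.51, 11.7, 11.9 and 11.1 in RIL50. RIL50 generation 10 lineage 1 was the lowest, and the lines overlapped. In RIL50 generation 10 lineage 2 the region was listed as separate peaks with an uncovered gap, which left 698 covered bases there, against 787 to 842 in the other libraries. A smaller region beyond the high-coordinate end of PRR9, 129 to 217 bp wide and overlapping the neighbouring gene ZAT, was present in all 8 libraries with a fold of 6.86 ± 1.26 (SD, n = 8).

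PRR5, which acts after PRR7, and TOC1, the evening member of the family, varied more between libraries. PRR5 had 1 region, 117 bp or more beyond the high-coordinate end (chromosome 5, 8358663 to 8359335), with folds of 7.85, 8.28, 6.31 and 5.83 in RIL149 and 6.99, 8.65, 6.61 and 8.15 in RIL50. Its width ranged from 302 to 587 bp in RIL149 and from 263 to 673 bp in RIL50, while 263 bp were covered in every library. The far edge moved more than the edge near the gene, and the narrowest and the widest peak were both from RIL50. TOC1 had folds of 15.2, 16.5, 12.1 and 10.5 in RIL149 and 14.0, 16.5, 17.8 and 12.1 in RIL50 at a region across its low-coordinate end (chromosome 5, 24674505 to 24675137). RIL149 generation 3 and RIL50 generation 3 lineage 2 were the low libraries, and the lines overlapped. A weaker TOC1 region (chromosome 5, 24673706 to 24674253) lay 710 bp or more before the same end, 48 bp from AT5G61370, with a fold of 4.91 ± 1.20 (SD, n = 8).

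The genes of the evening complex had lower mean folds than the morning genes. ELF3, the scaffold protein that joins ELF4 and LUX, had its main region 690 bp or more before the low-coordinate end (chromosome 2, 11057816 to 11058254). Fold enrichment was 9.41, 10.7, 7.27 and 5.32 in RIL149 and 7.12, 9.71, 9.27 and 8.42 in RIL50. RIL149 held both the highest and the lowest of these 8 values, and RIL50 lay between them. The lowest came from the library with the shortest list. Width there was 207 to 367 bp in RIL149 and 337 to 424 bp in RIL50. With a window of 500 bp instead of 1000 bp this region fell outside, and ELF3 was left with a weak region listed in 4 libraries.

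ELF4, a small protein that holds ELF3 in the nucleus, is the shortest of the 10 genes. It had a region across its high-coordinate end (chromosome 2, 16734866 to 16735371) with folds of 6.99, 8.28, 7.66 and 4.73 in RIL149 and 5.86, 7.08, 8.75 and 6.44 in RIL50. The lowest value again came from RIL149 generation 3 lineage 2, and the lines overlapped. LUX, the MYB-like factor that brings the complex to DNA, was the most strongly marked of the 3. Its region at the low-coordinate end (chromosome 3, 17182464 to 17183072), shared with AT3G46630, had folds of 13.7, 11.9, 14.4 and 13.1 in RIL149 and 12.1, 12.8, 16.5 and 13.3 in RIL50. Widths were 481 to 533 bp in RIL149 and 545 to 597 bp in RIL50. Every RIL50 peak was wider than every RIL149 peak, which was so at 1 of the 14 shared clock regions, while the widths of 4.51% of all 10916 shared regions did not overlap between the lines (107 wider and 385 narrower in RIL149). The widths at CCA1 and LUX were singled out after their values were seen and were not tested.

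GI had 3 regions, of which the strongest lay apart from the gene. That region (chromosome 1, 8060635 to 8061348) ended 403 bp before the low-coordinate end. Fold enrichment was 18.0, 18.5, 16.0 and 18.3 in RIL149 and 15.8, 19.0, 17.9 and 16.1 in RIL50. The lines overlapped, and 610 bp were covered in all 8 libraries. The other GI regions were weak. One crossed the low-coordinate end, with a fold of 2.28 to 3.29 in 7 libraries, and one crossed the high-coordinate end into the ribosomal protein gene PFL, with a fold of 1.94 to 2.88 in 6.

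Ordered by the mean of the strongest peak over the 8 libraries, PRR7 came first at 27.9 ± 2.02, followed by LHY at 17.6 ± 0.969 and GI at 17.4 ± 1.27 (SD, n = 8). CCA1 at 14.5 ± 0.800, TOC1 at 14.3 ± 2.58 and LUX at 13.5 ± 1.48 formed the middle, then PRR9 at 11.3 ± 1.28. ELF3 at 8.41 ± 1.75, PRR5 at 7.33 ± 1.04 and ELF4 at 6.97 ± 1.31 were lowest. Some neighbours in this order did not differ beyond their spread: LHY was above GI in 5 of 8 libraries, CCA1 above TOC1 in 4, TOC1 above LUX in 5 and PRR5 above ELF4 in 5. The steps from PRR7 to LHY, from GI to CCA1, from LUX to PRR9 and from PRR9 to ELF3 held in 8 of 8 libraries, and ELF3 was above PRR5 in 7 while their means differed by less than the SD of ELF3.

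**Figure D2:**
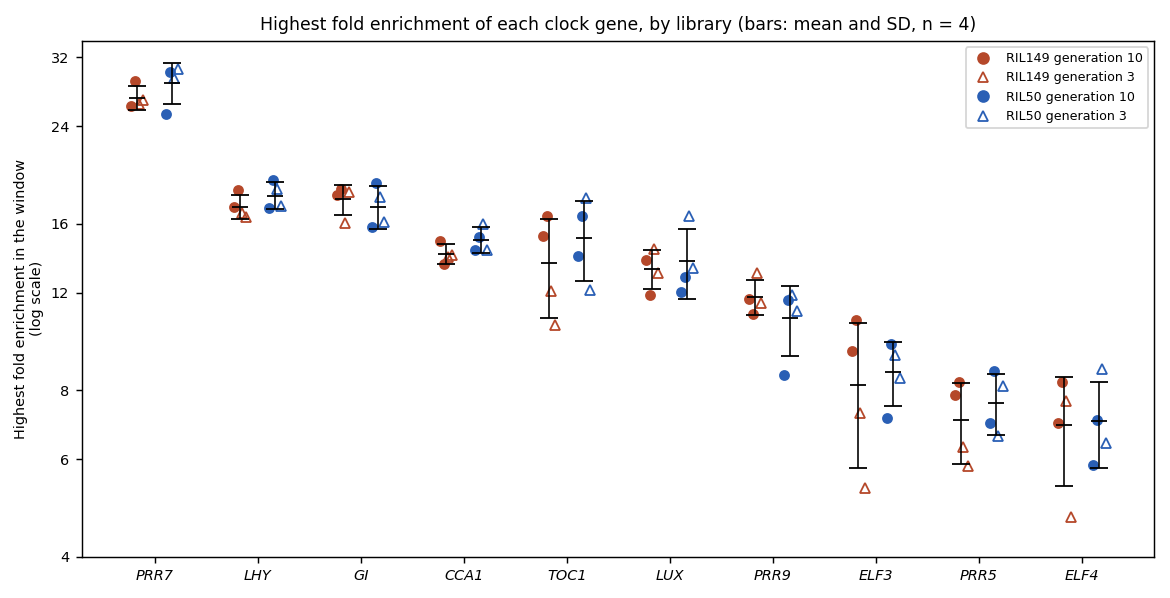
Highest fold enrichment in the window of each clock gene on a log axis, by library, with RIL149 left of RIL50 at each gene. Filled circles are generation 10, open triangles are generation 3 and bars are the mean and SD of 4 libraries; PRR7 stands above all others and the lines overlap at every gene.

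Most of the clock genes lay high in the range of all genes. The median of their mean fold was 13.9, beside 7.22 over the 12414 genes with a peak in all 8 libraries, and 9 of the 10 were above that value. ELF4 was the exception, at percentile 47.1 of those genes. PRR5, at percentile 51.3, and ELF3, at 62.8, lay near the middle, and PRR7 was at percentile 99.98. By role, the morning factors had a median of 16.1 over 2 genes, the pseudo-response regulators 12.8 over 4, the evening complex 8.41 over 3, and GI 17.4. The order depends in part on the background used. Taken over the genome-wide background of the library and not over the local one, an alternative added after the data were seen, the mean was 60.9 for PRR7, 40.1 for LHY, 30.8 for CCA1 and 30.6 for GI, whereas TOC1 stayed at 14.6, ELF3 at 8.41 and ELF4 at 6.97. On that scale TOC1 was below LUX (19.2) and PRR9 (18.5), and GI was within the spread of CCA1.

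**Figure D3:**
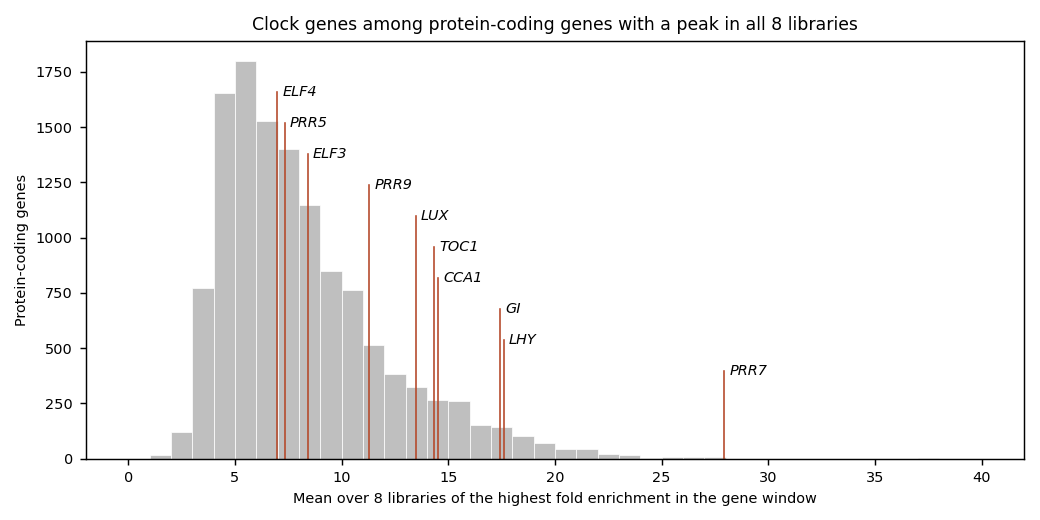
Number of protein-coding genes by mean highest fold enrichment in the gene window, for the 12414 genes with a peak in all 8 libraries, in bins of 1. Vertical lines mark the 10 clock genes, from ELF4 at 6.97 to PRR7 at 27.9; the height of a line carries no value.

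The comparison of RIL149 with RIL50 asks whether lines that differ in the rate of CG methylation change also differ in accessibility at these genes. No clock gene separated them in presence, covered bases or highest fold. The width of the peak at the main LUX region did, as given above. Presence in all 4 libraries of one line and none of the other was found for 0 of the 10, beside 0.740% of all protein-coding genes. Covered bases, the bases of the window covered by peaks, join presence and width. They stop at the window limit, while widths are those of whole peaks. At ELF3, the 424 bp peak of RIL50 generation 10 lineage 1 gave 296 covered bp. Covered bases separated the lines without overlap at 0 of the 10, beside 3.42% of all genes (238 higher and 701 lower in RIL149). The highest fold did so at 0 of the 10, beside 3.50% of the 12414 genes with a peak in all 8 libraries. In a two-sided exact permutation test of covered bases over 70 arrangements, adjusted by the Benjamini-Hochberg method over all 27444 genes, 0 genes had an adjusted p under 0.05 (939 had an unadjusted p under 0.05, of which 0 were clock genes, and the lowest adjusted p was 0.835). The smallest p that the design allows for a gene is 0.0286. After adjustment a gene could pass only if most of the 27444 genes were at that p. A count of 0 therefore says little about single genes, here and between the generations.

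The largest differences in covered bases between the lines stayed within the spread of the libraries. ELF4 had 712, 581, 533 and 316 bp in RIL149 and 389, 369, 404 and 412 bp in RIL50. Libraries of RIL149 lay on both sides of RIL50, with means of 535.5 ± 165 bp for RIL149 and 393.5 ± 18.9 bp for RIL50 (mean ± SD of 4 libraries; exact permutation p = 0.143, adjusted p = 1). The ELF4 difference of 142 bp (RIL149 minus RIL50) was 83.2 to 215 bp with 1 library left out and -6.25 bp with the same number of peaks taken from each list. GI had 829, 1044, 1033 and 666 bp in RIL149 and 1204, 505, 1141 and 1224 bp in RIL50. There RIL50 generation 10 lineage 2 was the lowest of the 8 and the other RIL50 libraries the highest (893 ± 181 bp for RIL149 and 1018.5 ± 344 bp for RIL50, mean ± SD of 4 libraries; exact permutation p = 0.543, adjusted p = 1). TOC1 had 681, 751, 657 and 559 bp in RIL149 and 799, 696, 694 and 904 bp in RIL50. Its means were 662 ± 79.4 bp for RIL149 and 773.25 ± 100 bp for RIL50 (mean ± SD of 4 libraries; exact permutation p = 0.143, adjusted p = 1), and 1 RIL149 library lay among the RIL50 values. Of the 10 genes, 4 had the higher mean in RIL149 and 6 the lower, with a median difference (RIL149 minus RIL50) of -7.12 bp, beside -24.5 bp over the 20138 genes with a peak in any library. Taken within each generation, 7 of the 10 had opposite signs at generation 10 and generation 3, and the share of all genes that did so was not counted. The absence of separation rested in part on single libraries: without RIL149 generation 10 lineage 2 the lines separated at 1 gene, TOC1 (lower in RIL149), without RIL149 generation 3 lineage 2 at 1, ELF4 (higher in RIL149), and without RIL50 generation 10 lineage 2 at 1, GI (lower in RIL149), where 6.06%, 6.77% and 7.87% of all genes did so.

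**Figure D4:**
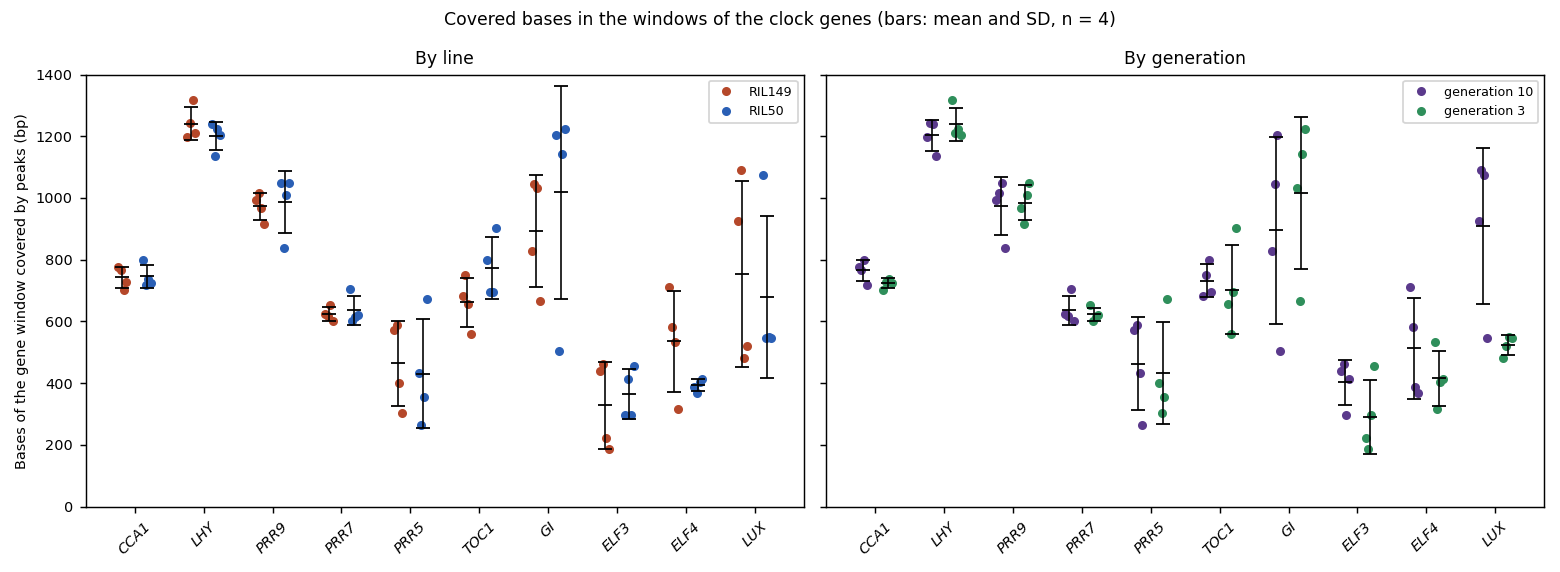
Bases of each clock gene's window covered by peaks, in bp, with 1 point per library and bars for the mean and SD of 4 libraries. The left panel sets RIL149 beside RIL50 and the right panel generation 10 beside generation 3; the groups overlap at all 10 genes in both panels, and LUX is nearest to separating by generation.

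Generation 10 was compared with generation 3 to see whether further generations went with gains or losses of accessibility. Specific presence was found for 0 of the 10 clock genes, beside 0.230% of all protein-coding genes, all of which were listed in generation 10. Covered bases did not overlap between generations at 0 of the 10, beside 2.86% of all genes (752 higher and 34 lower in generation 10), and the highest fold at 0 of the 10, beside 2.17%. The exact permutation test gave 0 genes with an adjusted p under 0.05 (786 at an unadjusted p under 0.05, of which 0 were clock genes, and a lowest adjusted p of 0.998). Of the 10 genes, 7 had more covered bases in generation 10 and 3 had fewer, with a median difference (generation 10 minus generation 3) of 29.9 bp, beside 43.5 bp over the 20138 genes, of which 78.6% were higher in generation 10. The lists themselves were longer at generation 10, covering 6.94 ± 0.935 Mb, against 6.15 ± 1.35 Mb at generation 3 (SD, n = 4 each), and the part of list length in these differences was not tested.

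LUX came nearest to a change with generation. It had 924, 1090, 1075 and 546 bp covered at generation 10 (RIL149 lineages 1 and 2, then RIL50 lineages 1 and 2) and 481, 521, 551 and 545 bp at generation 3. At generation 10, 3 libraries were high, and RIL50 lineage 2 lay among the generation 3 values. The means were 908.75 ± 253 bp at generation 10 and 524.5 ± 31.8 bp at generation 3 (SD, n = 4 each; exact permutation p = 0.0571, adjusted p = 1). With the same number of peaks taken from each list, the LUX difference (generation 10 minus generation 3) was 26 bp instead of 384.25 bp (exact permutation p = 0.371, adjusted p = 1). The mean fold at the main LUX region was lower at generation 10, at 12.6 ± 0.849 in generation 10 and 14.3 ± 1.59 in generation 3, with overlapping libraries. ELF3 had 402.5 ± 73.7 bp at generation 10 and 291 ± 119 bp at generation 3 (SD, n = 4 each; exact permutation p = 0.200, adjusted p = 1). CCA1 had 765 ± 34.5 bp at generation 10 and 723.5 ± 16.1 bp at generation 3 (SD, n = 4 each; exact permutation p = 0.114, adjusted p = 1). Within the lines, CCA1 and LUX were higher at generation 10 in both and LHY was lower in both. The other 7 had opposite signs in RIL149 and RIL50, and the share of all genes with opposite signs was not counted. Without RIL50 generation 10 lineage 2 the generations separated at 2 genes, CCA1 and LUX, and without RIL50 generation 3 lineage 1 at 1, LUX, all higher at generation 10, where 9.61% and 6.26% of all genes separated.

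Besides peak widths, the libraries differed in 6 weak regions that some lists do not hold. Their folds were 1.94 to 3.61, at percentiles 2.56 to 33.5 of their lists where they were listed. None was specific to a line or a generation. At ELF4 a region across the low-coordinate end (chromosome 2, 16734157 to 16734419) was listed in 3 RIL149 libraries, with folds of 2.49, 2.50 and 2.42, and in 0 RIL50 libraries. Such a pattern, 3 RIL149 libraries and none of RIL50, was found for 247 of all 24103 regions (1.02%). Inside LUX a region that overlaps AT3G46650 (chromosome 3, 17185072 to 17185652) was listed in 3 generation 10 libraries, with folds of 2.30, 2.51 and 2.46, and in 0 generation 3 libraries. Presence in 3 generation 10 libraries and no generation 3 library was found for 278 of the 24103 regions (1.15%). It holds the added covered bases at LUX, 398, 557 and 478 bp.

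The remaining weak regions followed neither grouping. The ELF3 region across the low-coordinate end (chromosome 2, 11058889 to 11059080) was listed in both generation 10 libraries of RIL149, with folds of 2.42 and 3.61, in RIL50 generation 10 lineage 2 at 2.73 and in RIL50 generation 3 lineage 2 at 2.09. The GI region at the low-coordinate end (chromosome 1, 8061589 to 8061846) was missing from RIL50 generation 10 lineage 2, and the one at the high-coordinate end (chromosome 1, 8067453 to 8067919) from that library and from RIL149 generation 3 lineage 2. Beyond LHY, a peak of 137 bp with a fold of 2.15 was listed in RIL149 generation 3 lineage 1. The libraries that lacked the most of these 6 regions were RIL50 generation 10 lineage 2 and RIL149 generation 3 lineage 2, each with 1 of them. These had the smallest covered totals of the 8, 5.56 and 4.26 Mb, and background pileups of 8.88 and 12.5. The library with the lowest background pileup, RIL50 generation 3 lineage 1 (8.71), listed both weak GI regions, and the one with the highest, RIL50 generation 3 lineage 2 (25.3), lacked the weak regions at ELF4, LUX and LHY. The part of depth in these absences was not tested.

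**Figure D5:**
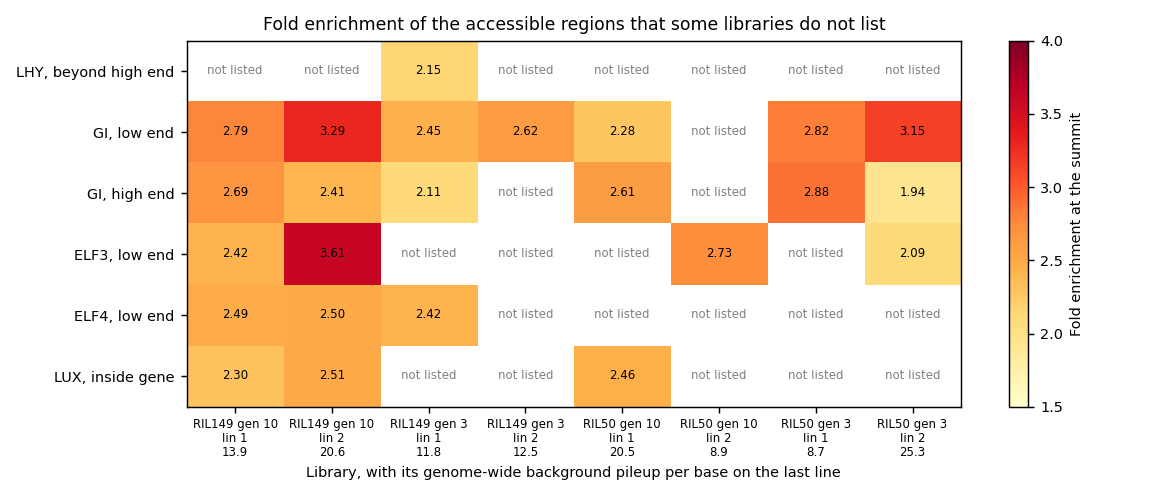
Fold enrichment at the summit of the 6 clock gene regions that are missing from at least 1 list, by library, with each library's genome-wide background pileup per base under its name. Listed values run from 1.94 to 3.61, and no row is filled in all libraries of one line or one generation and empty in the other.

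Regions listed in 4 of 4 libraries of one line and 0 of 4 of the other separated the lines elsewhere in the genome. They were 384 of 24103 (1.59%), and none was among the 20 clock regions. Distances from other genes are not given for comparison. The nearest were 17.1 kb from LUX (listed in RIL149), 31.6 kb from LHY (listed in RIL50), 60.8 kb from ELF3 (listed in RIL149) and 155 kb from ELF4 (listed in RIL50). For the other 6 genes the distance was 681 kb or more. PRR9 and CCA1, neighbours on chromosome 2, shared the nearest one, 1067 kb from PRR9 and 1079 kb from CCA1.

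Other clock genes were less uniformly open. Of 34 further genes of the clock, 22 had a peak in all 8 libraries, 10 in some and 2 in none. The strongest were the night-light inducible genes LNK4, with a median fold of 21.3, and LNK3, with 19.9, whose family works with RVE factors as co-activators, followed by AT4G01280 with 16.6. ELF4-L1 and ELF4-L3, relatives of ELF4, had no listed peak, and ELF4-L2 had one in 1 library. ELF4-L4, of the same family, was listed in all 8 with a median fold of 9.84. ZTL, the blue-light receptor that marks TOC1 and PRR5 for degradation and is stabilised by GI, had a peak in 2 libraries, and its relative LKP2 in 3. Their relative FKF1 was listed in all 8 with a median fold of 12.8. PRR3, which protects TOC1 from ZTL, had one in 3. The others listed in only some libraries were COR27, XCT and JMJD5 in 7, and CKB4, a subunit of casein kinase 2, in 6. AT5G52660 was listed in 5 and FIO1, an RNA methyltransferase, in 1.

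Between the lines, 2 of the 34 did not overlap in covered bases, beside 3.42% of all genes, and both were higher in RIL149. AT5G52660 was listed in 4 RIL149 libraries and 1 RIL50 library, with 427 ± 57.6 bp for RIL149 and 34.2 ± 68.5 bp for RIL50 (mean ± SD of 4 libraries; exact permutation, adjusted p = 0.835). JMJD5, a histone demethylase of the clock, had 257 ± 85.3 bp for RIL149 and 122 ± 82.8 bp for RIL50 (mean ± SD of 4 libraries; exact permutation, adjusted p = 0.835). Between generations, 3 of the 34 did not overlap, beside 2.86% of all genes. All 3 were higher at generation 10, as were 752 of the 786 such genes in the genome: the WD-repeat genes LWD1, with 474 ± 8.81 bp at generation 10 and 313 ± 72.0 bp at generation 3, and LWD2, with 896.5 ± 90.5 bp at generation 10 and 680 ± 39.5 bp at generation 3, and the arginine methyltransferase gene PRMT5, with 294 ± 9.00 bp at generation 10 and 240 ± 35.4 bp at generation 3 (SD, n = 4 each; exact permutation, adjusted p = 0.998 for each). None of the 5 passed the adjusted test, which a gene could pass only if most genes were at the smallest p.

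Of 7 clock output genes, 6 had a peak in all 8 libraries. The strongest were GRP7, an RNA-binding protein with its own daily rhythm, at a median fold of 18.0, PIF4, a growth-promoting factor repressed by the evening complex, at 11.1, and its relative PIF5 at 6.89. FT, the mobile signal for flowering, had no listed peak in its window in any library.

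Over the 8 libraries, the covered bases of the clock genes, each divided by its own mean and averaged, were highest in RIL149 generation 10 lineage 2 (1.16) and lowest in RIL149 generation 3 lineage 2 (0.796). This profile followed the length of the lists, with a Pearson r of 0.906 to the covered bases of the whole library, given as a description over 8 libraries that share depth. Among 7300 named genes with a peak in at least 4 libraries, 140 had an r above 0.9 to this profile. The most like it were NSL1, NAC086, ENH1, SMT1 and NAC050, with r of 0.975 to 0.983.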

How the data were processed

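ATAC-seq libraries of 8 shoot samples were analysed from the deposited peak lists. Per the submitters' processing notes, MACS2 2.2.9.1, BWA 0.7.17, Trimmomatic 0.39 and Picard were used with the TAIR10 build; their roles and order, any Tn5 shift and the mapping quality are not stated there. Per the file headers, each list holds the peaks of 1 library. The deposited fold is a ratio of pileup to local background at the summit, p and q were deposited as −log10 values, and the authors' peak caller made the score from q. Fold and score describe peaks within a list and were not tested. The lists hold no counts, so no count test was made. Where a list's name gives a generation 1 off its label, the label was taken.

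Peaks on the 5 nuclear chromosomes were used. Peaks that overlap by at least 1 bp were merged into regions. Gene positions and names came from RefSeq genes on TAIR10.1, whose coordinates are not printed. In the 5 Mb bin of each of the 10 clock genes, gene ends met peaks most often within 250 bp of no offset. CCA1, PRR9 and ELF4 share a bin, so these are not 10 separate checks. The table has no strand and no sequence was at hand, so no motif was searched, and IDs it does not name are given as IDs. Covered bases per window were tested per gene with a two-sided exact permutation test (Python 3.11.15, numpy 2.4.6, scipy 1.17.1), adjusted over 27444 protein-coding genes. The pileup and local background of a peak were solved from its fold and p by the Poisson relation, which returned 100% of 1000 peaks drawn per library within 0.01. The scripts were tested on simulated data.

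The clock genes and the gene lists were chosen with earlier results of these data known. Named genes are the 10 core genes and the 5 genes with the most similar profile. Of the other clock and output genes, those not listed in all 8 libraries and those whose libraries do not overlap are named. The 3 with the highest median fold are named too. ELF4-L4 and FKF1 were added as relatives of genes named by that rule. A shared lineage number within a line means shared descent, though mostly not the same sublineage. The deviations of the lineages from their group means correlated by 0.00610 in RIL149 and -0.112 in RIL50 over 20138 genes. With 2 lineages per line, these values cannot show whether descent left a common trace. The test without a block was kept. The highest share of genes with identical covered bases in a pair of libraries was 1.38%, so no pair looked like 1 library.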

Additional observations from a re-analysis of the deposited data

Results flagged for a closer look

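Of 80 sets of 4 libraries examined (10 genes, covered bases and highest fold, within each line and each generation), 2 held a library far from the other 3, and chance alone gives about 1 in 20. At GI, RIL50 generation 10 lineage 2 had 505 covered bases, against 1141 to 1224 in the other RIL50 libraries. Both weak GI regions were missing from that list, which had 16952 peaks and a background pileup of 8.88. RIL50 generation 3 lineage 1, with 19193 peaks and a pileup of 8.71, listed both. The part of depth or list length in this was not tested. At LUX, RIL50 generation 10 lineage 1 had 1075 covered bases, against 545 to 551 in the other RIL50 libraries. The region inside the gene was listed in this RIL50 library and in no other of that line.

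Covered bases moved in opposite directions with generation in RIL149 and RIL50 at 7 of the 10 clock genes. How many of all genes did so was not counted, so 7 of 10 is not a trait of the clock genes. ELF4 was flagged because its generations did not overlap within either line. Its covered bases (generation 10 minus generation 3) differed by 222 bp in RIL149 and by -29.0 bp in RIL50, which differ by 251 bp. Both generation 10 libraries of RIL149 were above both of generation 3, and both of RIL50 were below. ELF4 was picked from 10 genes on covered bases and highest fold, and the share of all genes with this pattern was not counted. The difference between the lines was not tested.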

How the results depend on the processing

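Counts of genes passing the adjusted test were 0 for both comparisons under every alternative run. A gene could pass only if most genes were at the smallest p, so these counts do not show stability. Specific presence stayed at 0 clock genes. With the replicate block (same lineage, or same number) 0 genes passed for either comparison, and 0 with the lineage numbers of RIL50 crossed, but the smallest p of these 4 pairs is 0.125, so they say nothing about stability. Labels permuted within a stratum could not pass either. The number of clock genes whose libraries do not overlap was more easily moved. By line it was 1 with an equal number of peaks per library (LUX, lower in RIL149, 3.73% of all genes), 1 with covered bases scaled to the library's total (ELF4, higher in RIL149, 4.54%) and 0 to 1 with a library left out. By generation it was 1 with 500 bp windows (CCA1, higher at generation 10, 2.78%) and 0 to 2 with a library left out. Leaving out a library relaxes the rule. With the gene alone, 4 clock genes kept a peak in all 8 libraries, and 9 with 500 bp. The median fold of 13.9 was 10.1 for the peak nearest either gene end and 18.8 over the library's background, both added after the data were seen; without 1 library it was 13.4 to 14.1. With 2000 bp windows the fold of PRR5 was 11.0, from a peak farther away. The peak nearest the gene's start and the motif search were not run, as no strand or sequence was given.

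Signs of single differences in covered bases were often unstable, and the cause was not tested. Between lines (RIL149 minus RIL50) the difference changed sign with 500 bp windows at PRR9 (9.25 bp), with the gene alone at LHY (-7.00) and PRR9 (0.25), with equal numbers of peaks at ELF4 (-6.25) and LUX (-44.5), with the number of peaks at GI (0.25 peaks), and after scaling, in bp per Mb covered, at CCA1 (13.1), PRR7 (10.0) and PRR9 (16.2). Between generations (10 minus 3) it changed sign with 500 bp windows at PRR5 (-11.0), with the gene alone at LHY (5.50), with a −log10 q of at least 5 at GI (59.75), with the number of peaks at PRR9 (0.25), and after scaling at CCA1 (-11.4), TOC1 (-9.15), PRR5 (-4.43) and PRR7 (-12.8). With 1 library left out, the line difference ran from -14.1 to 15.3 bp at CCA1, -82.5 to 9.17 at ELF3, -37.2 to 207 at LUX, -22.0 to 115 at PRR5, -23.3 to 11.7 at PRR7 and -62.3 to 7.67 at PRR9. The generation difference ran from -237 to 9.67 bp at GI, -11.9 to 112 at PRR5, -9.33 to 25.7 at PRR7, -35.9 to 33.75 at PRR9 and -19.9 to 95.1 at TOC1. The lists give no read totals, so how far depth limits the listing of regions of a fold near 2 is not known.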
